A study of Mus musculus with 20 samples.

Results

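The 10 genes described here encode Aurora A and the switch that starts mitosis: Aurka, Tpx2, Bora, Ajuba, Plk1, Cdc25b, Cdc25c, Wee1, Pkmyt1 and Ccnb1. They were taken by symbol, with no filter on their values, from a list chosen with earlier results of these data known. All 10 were found among the 49568 genes of both count tables. RNA was sequenced from blood-forming cells sorted from mouse bone marrow, in a study on the aryl hydrocarbon receptor, Aurora A and the G2/M phase. The receptor, encoded by Ahr, is a ligand-activated transcription factor. The 4 groups were multipotent progenitors (MPP) of AhR-KO mice, MPP of WT mice, long-term haematopoietic stem cells (LT-HSC) of AhR-KO mice and LT-HSC of WT mice, with 5 libraries each. Per the labels, the mice were untreated, C57BL/6 and 8 to 12 weeks old in all 4 groups, and genotype and sorted population are the differences the labels give. The purpose stated for the series is to find receptor targets that control stem cell function and proliferation. The allele, the cells in which it was deleted, the sort markers and whether animals were pooled are not stated in the labels. The libraries of a group were treated as separate samples, so the p-values measure the spread between these libraries.

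Entry into mitosis is a switch on the kinase Cdk1, which needs cyclin B1, the product of Ccnb1. Wee1 and Myt1, the product of Pkmyt1, hold Cdk1 inactive by phosphorylating it, and the Cdc25 phosphatases remove those phosphates. Aurora A, helped by its cofactor Bora, activates the polo-like kinase Plk1, which then promotes Cdc25 activity and the loss of Wee1. Tpx2 activates Aurora A on spindle microtubules, and Ajuba, a LIM-domain protein, was described as an activator of Aurora A in human cells. Much of the switch works through phosphorylation and protein turnover, which RNA counts do not measure. LT-HSC are mostly quiescent, while MPP divide more often.

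Library totals lay between 13712668 and 21622653 counts. Levels are given as CPM, the counts scaled to a common library size with TMM factors, and levels compared between genes are given per kilobase of exon. Of the 14 population markers, all but Ly6a and Kit separated MPP from LT-HSC the way of the labels in each genotype. Flt3 had 266 to 465 CPM in AhR-KO MPP and 407 to 553 in WT MPP, against 40.2 to 64.9 in AhR-KO LT-HSC and 43.3 to 65.7 in WT LT-HSC. Slamf1 ran the other way, with at most 11.2 CPM in AhR-KO MPP and 9.28 in WT MPP, against at least 43.8 in AhR-KO LT-HSC and 21.6 in WT LT-HSC. Ly6a overlapped in both genotypes and in WT ran higher in MPP, with 57.4 to 121.4 CPM in WT MPP against 53.8 to 75.7 in WT LT-HSC. Kit overlapped in WT, with 635 to 1062 CPM in WT MPP against 619.7 to 1912 in WT LT-HSC. Ahr itself was not lower in AhR-KO libraries beyond the spread, with a log2 fold change of 0.69 ± 0.27 in MPP and -0.15 ± 0.18 in LT-HSC (SE, adjusted p = 0.663 and 0.861). It had 9.80 to 19.2 CPM in AhR-KO MPP, against 5.80 to 14.2 in WT MPP, and 18.5 to 29.7 CPM in AhR-KO LT-HSC, against 20.8 to 36.6 in WT LT-HSC. Counts over the whole gene need not show a deletion of part of it, so this value does not check the genotype labels. In bulk RNA, a smaller share of cells in G2 or mitosis and less RNA per cell cannot be told apart.

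One library stood apart from its group over the whole genome. The library labelled WT LT-HSC 1 correlated with the others of its group at 0.900 to 0.910 (Pearson's r of log values over genes), while the other 4 reached 0.975 among themselves. Of the 11880 genes averaging 5 CPM or more, 5158 (43.4%) were higher in it than in all 4 others, and 4953 were lower than in all 4. Mitochondrial genes held 0.354% of its counts, against 0.973 to 1.17% in the rest of its group. The values of the 10 genes that rest on WT LT-HSC, and the counts of the gene lists around them, are therefore also given without that library. AhR-KO LT-HSC 2 and 3 also carried more RNA of mature cells. The 9 neutrophil markers summed to 966 and 1465 CPM there, against 8.65 to 16.5 in the other AhR-KO LT-HSC libraries and 7.09 to 92.1 in WT LT-HSC, and AhR-KO LT-HSC 3 alone held 2024 CPM of the collagen gene Col1a1. In WT LT-HSC 6, erythroid markers summed to 1840 CPM, against 413 to 532 in the rest of its group. Granulocyte-monocyte progenitor markers summed to 1340 CPM there, against 88.7 to 577. The part of these cells in the results was not tested, but the comparisons were repeated without AhR-KO LT-HSC 2 and 3, and with each library left out in turn.

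In GENCODE M21 (GRCm38), the Aurora A genes lie on chromosomes 2 and 14: Aurka at 172356190 to 172370535 and Tpx2 at 152847964 to 152895321 on chromosome 2, Bora at 99046222 to 99074540 and Ajuba at 54567472 to 54577558 on chromosome 14. Plk1 lies at 122159439 to 122169873 and Wee1 at 110122046 to 110143286 on chromosome 7. Cdc25b lies on chromosome 2 at 131186949 to 131198497, Pkmyt1 on chromosome 17 at 23726336 to 23736735 and Ccnb1 on chromosome 13 at 100778650 to 100786570. All 10 are protein-coding. The library kit does not mark strand, so reads from genes on the opposite strand cannot be told apart where exons overlap. Such overlaps covered 623 bases of Cdc25c with Gm3550, 319 of Pkmyt1 with Paqr4, 156 of Plk1 with Gm44985 and 92 of Cdc25b with Spef1, and of these partners Paqr4 was the most abundant, at 6.02 CPM.

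RefSeq promoter windows (GRCm38.p6), from 250 bases before to 50 after the start, were matched for 5 of the 10 genes. The 4 shown belong to 3 genes whose levels went together across libraries and to Ajuba, which went the other way. Capitals mark 2 motifs known from G2/M genes, searched on both strands: CCAAT, the site of NF-Y, and TTTGAA or TTCGAA, the cell cycle homology region (CHR) bound by the MuvB complex.
Aurka (chr2:172370521-172370820, minus strand): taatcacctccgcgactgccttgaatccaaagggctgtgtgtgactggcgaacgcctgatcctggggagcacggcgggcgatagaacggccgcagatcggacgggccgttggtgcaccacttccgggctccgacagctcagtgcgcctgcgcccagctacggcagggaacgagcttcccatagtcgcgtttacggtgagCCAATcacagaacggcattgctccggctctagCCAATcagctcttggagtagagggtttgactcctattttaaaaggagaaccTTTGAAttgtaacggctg
Plk1 (chr7:122159185-122159484, plus strand): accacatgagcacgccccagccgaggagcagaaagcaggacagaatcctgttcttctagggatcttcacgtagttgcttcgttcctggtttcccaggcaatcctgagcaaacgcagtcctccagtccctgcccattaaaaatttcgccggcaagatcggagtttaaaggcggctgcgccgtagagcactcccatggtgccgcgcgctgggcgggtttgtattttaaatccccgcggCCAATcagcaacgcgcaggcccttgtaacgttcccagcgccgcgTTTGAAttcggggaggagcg
Ccnb1 (chr13:100786437-100786736, minus strand): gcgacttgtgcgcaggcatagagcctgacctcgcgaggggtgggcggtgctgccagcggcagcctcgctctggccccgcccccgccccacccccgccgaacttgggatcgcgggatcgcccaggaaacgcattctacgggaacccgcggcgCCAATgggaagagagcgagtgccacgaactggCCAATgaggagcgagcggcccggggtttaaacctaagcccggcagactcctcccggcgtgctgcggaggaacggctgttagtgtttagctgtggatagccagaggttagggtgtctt
Ajuba (chr14:54577612-54577911, minus strand): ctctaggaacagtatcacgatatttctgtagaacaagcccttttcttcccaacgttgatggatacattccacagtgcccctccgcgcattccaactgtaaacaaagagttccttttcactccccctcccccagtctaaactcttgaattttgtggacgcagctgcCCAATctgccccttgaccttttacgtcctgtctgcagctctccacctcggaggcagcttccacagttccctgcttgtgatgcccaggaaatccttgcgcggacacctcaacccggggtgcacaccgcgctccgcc

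CCAAT occurred in all 5 matched windows, at -51 and -19 in Aurka, -14 in Plk1, -99 and -67 in Ccnb1, -85 in Ajuba and -28 in Cdc25b, counted from the start. Of 32851 RefSeq windows of this length, 37.4% held it. The CHR letters occurred at 33 in Aurka, 31 in Plk1 and 8 in Cdc25b, and in neither the Ccnb1 nor the Ajuba window. They were in 19.2% of all windows, and both motifs together in 7.52%. The letters GCGTG, the core bound by the aryl hydrocarbon receptor, occurred at -240 in Plk1 and -12 in Ccnb1 and in 32.4% of all windows. None of these motifs overlapped another in the 5 windows. A match of letters is not a binding site.

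Per kilobase of exon, Wee1, the Cdk1 inhibitor, had the highest mean of the 10 genes in 3 groups. It averaged 55.5 ± 8.26 CPM per kb in AhR-KO MPP, 54.6 ± 5.06 in WT MPP, 56.9 ± 4.11 in AhR-KO LT-HSC and 53.2 ± 4.71 in WT LT-HSC (SD, n = 5 each). Its level in CPM overlapped between all 4 groups, with 165 to 236 in AhR-KO MPP, 166 to 209 in WT MPP, 176 to 209 in AhR-KO LT-HSC and 164 to 202 in WT LT-HSC. In WT MPP alone the cyclin gene Ccnb1 came first, at 71.8 ± 19.1 CPM per kb, although its libraries overlapped those of Plk1 and Plk1's overlapped those of Wee1. In AhR-KO LT-HSC, Wee1 lay above Ccnb1 in every library, with no overlap (51.4 to 61.1 against 25.4 to 37.6 CPM per kb). The same held in WT LT-HSC other than library 1 (48.0 to 59.1 against 24.3 to 29.1 CPM per kb). In WT LT-HSC 1, Wee1 lay below Ccnb1, at 48.7 against 80.0 CPM per kb.

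The other 9 genes fell into the same tiers in the 4 groups. Ccnb1, Plk1, Aurka and Tpx2 overlapped with their neighbours in the order and lay between 24.2 and 71.8 CPM per kb on average. Pkmyt1, Cdc25b and Bora lay lower, between 5.75 and 19.96, with no library of this tier reaching the one above. Cdc25c and Ajuba were the least abundant. In MPP the order was Cdc25c above Ajuba without overlap, at 5.99 ± 0.662 against 1.44 ± 0.528 CPM per kb in AhR-KO MPP and 6.78 ± 1.69 against 0.940 ± 0.398 in WT MPP. In LT-HSC the 2 genes overlapped. The lowest count behind any value was 26, for Ajuba in WT MPP 5, and the highest was 7095, for Ccnb1 in WT LT-HSC 1.

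**Figure D1:**
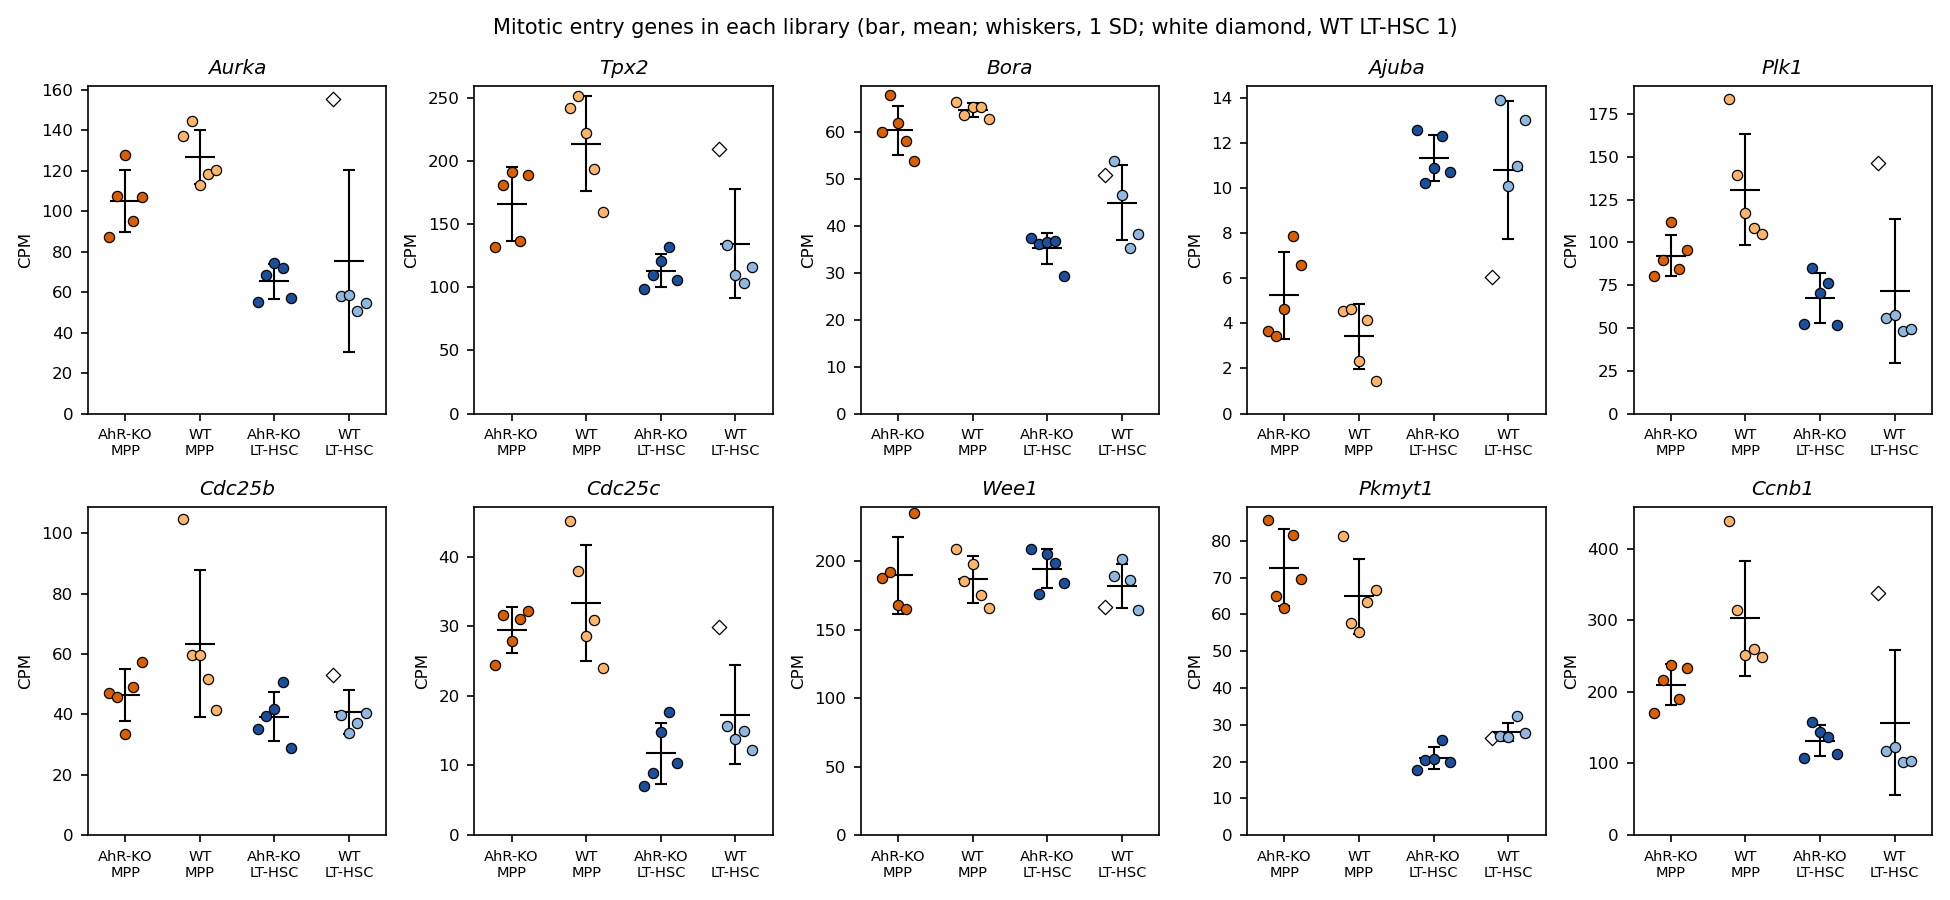
Level of each of the 10 genes in each library, in CPM from 0, for AhR-KO MPP, WT MPP, AhR-KO LT-HSC and WT LT-HSC. Points are libraries, the bar is the mean of 5 and the whiskers are 1 SD. The white diamond is WT LT-HSC 1, which lies above the other 4 WT LT-HSC libraries for Ccnb1 (337.5 against 103 to 123 CPM), Aurka and Plk1, and among or below them for Wee1, Pkmyt1 and Ajuba.

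Within WT LT-HSC, the switch genes did not stand apart together. In WT LT-HSC 1, Ccnb1 was 3.02 times the mean of the other 4 libraries, Aurka 2.81 times, Plk1 2.78 times and Cdc25c 2.11 times. These 4 of 10 genes reached a factor of 2, a level that 6.10% of the 11880 genes reached. Tpx2 was 1.81 times and Cdc25b 1.40 times that mean, also above all 4. Bora lay within the range of the others at 1.17 times, as did Wee1 at 0.897 times. Pkmyt1, at 0.923 times, and Ajuba, at 0.503 times, lay below all 4. Of the 18 S phase genes, 3 reached a factor of 2, Slbp, Rrm2 and Gins2, which are named after their values were seen. The 10 LT-HSC markers summed to 2566 CPM in this library, against 3606 to 3942 in the other 4. Because the library differed over the whole genome, the cause of its high Aurka, Plk1 and Ccnb1 cannot be told apart from its other differences.

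**Figure D2:**
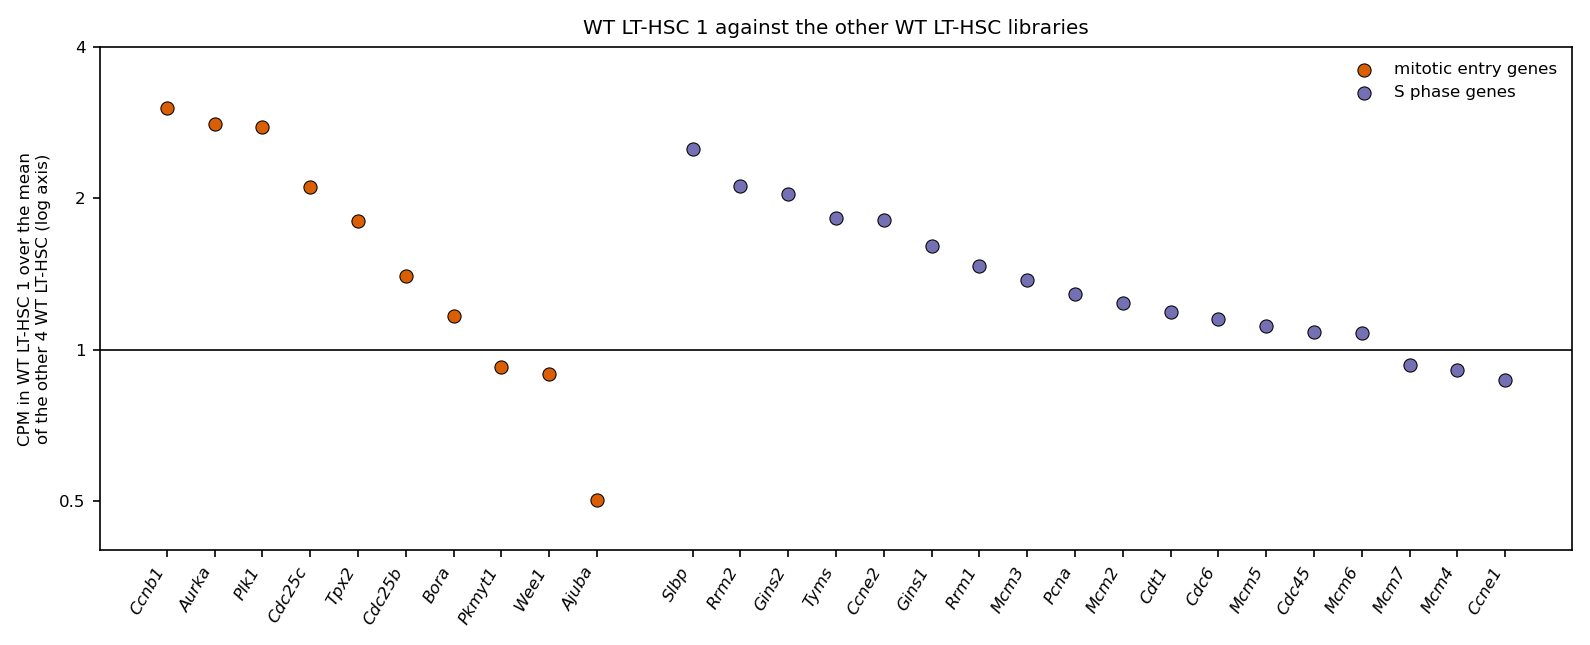
CPM in WT LT-HSC 1 over the mean of the other 4 WT LT-HSC libraries, on a log axis, for the 10 mitotic entry genes and 18 S phase genes, each sorted from high to low. Ccnb1, Aurka and Plk1 lie at 2.78 to 3.02, and Pkmyt1, Wee1 and Ajuba lie below 1.

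Setting MPP against LT-HSC in WT mice, most genes of the switch were higher in MPP, the activators and the inhibitor gene Pkmyt1 alike, while Wee1 did not pass the test and Ajuba was lower. Of the 10 genes, 8 were called higher and 1 lower, calls being adjusted p-values under 0.05 in edgeR's quasi-likelihood test over all genes. The same rule called 22.3% of the 17416 genes tested, 11.0% higher and 11.3% lower. The median log2 fold change of the 10 genes was 0.71, against 0.01 over all genes. In AhR-KO mice, 5 of the 10 were called higher and 1 lower, against 23.2% of genes (12.5% higher and 10.7% lower), with a median of 0.61.

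Among the Aurora A genes, Aurka in AhR-KO libraries had 87.2, 107, 128, 95.3 and 107 CPM in MPP, against 54.9, 68.2, 74.1, 72.1 and 57.2 CPM in LT-HSC. These groups did not overlap, and the log2 fold change was 0.68 ± 0.24 (SE, adjusted p = 0.0430). In WT libraries Aurka had 137, 145, 113, 118 and 121 CPM in MPP, against 156 CPM in WT LT-HSC 1 and 57.9, 58.3, 50.5 and 54.6 CPM in the other LT-HSC libraries. The single high LT-HSC library overlapped MPP, the other 4 did not, and the log2 fold change was 0.75 ± 0.24 with it and 1.19 ± 0.12 without it (adjusted p = 0.0278 and 4.20e-07). These calls were not firm: the AhR-KO call was lost with any 1 of the 10 libraries left out, and the WT call without WT LT-HSC 4, 5, 6 or 8 or without WT MPP 1 or 2. Tpx2 had 132 to 191 CPM in AhR-KO MPP, against 98.7 to 132 in AhR-KO LT-HSC, and 160 to 252 CPM in WT MPP, against 209 in WT LT-HSC 1 and 104 to 134 in the other 4. It rose by log2 0.55 ± 0.18 in AhR-KO MPP (adjusted p = 0.0286) and by 0.67 ± 0.18 in WT MPP (adjusted p = 0.00941), or 0.88 ± 0.14 without WT LT-HSC 1. The call of Tpx2 in AhR-KO was lost without AhR-KO LT-HSC 1, 2, 3 or 7 or without AhR-KO MPP 2, 3 or 5, and no single library ended the call in WT. Without AhR-KO LT-HSC 2 and 3, both genes lost their call in AhR-KO, with log2 fold changes of 0.74 ± 0.29 for Aurka and 0.54 ± 0.22 for Tpx2 (adjusted p = 0.0838 and 0.0960).

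Bora and Ajuba, both partners of Aurora A, separated the populations in opposite directions. Bora had 53.8 to 68.0 CPM in AhR-KO MPP, against 29.4 to 37.4 in AhR-KO LT-HSC, and 62.8 to 66.5 CPM in WT MPP, against 35.3 to 54.0 in WT LT-HSC. Its log2 fold change was 0.77 ± 0.11 in AhR-KO and 0.53 ± 0.11 in WT (adjusted p = 4.21e-05 and 0.00170), and 0.57 ± 0.11 in WT without WT LT-HSC 1. Ajuba had 3.65, 3.46, 4.64, 7.89 and 6.58 CPM in AhR-KO MPP, against 12.6, 10.2, 10.9, 12.3 and 10.7 CPM in AhR-KO LT-HSC. In WT it had 4.57, 4.63, 2.34, 4.15 and 1.43 CPM in MPP, against 6.04 CPM in WT LT-HSC 1 and 13.9, 10.1, 11 and 13 CPM in the other LT-HSC libraries. No MPP library reached any LT-HSC library of its genotype. The log2 fold change of Ajuba was -1.11 ± 0.30 in AhR-KO and -1.66 ± 0.31 in WT (adjusted p = 0.0107 and 0.000566), and -1.81 ± 0.29 in WT without WT LT-HSC 1.

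Plk1 and the cyclin gene Ccnb1 rose in WT MPP and did not pass the test in AhR-KO MPP. In AhR-KO libraries Plk1 had 80.4, 89.6, 112, 84.5 and 95.4 CPM in MPP, against 52.5, 84.9, 70.4, 76.3 and 51.9 CPM in LT-HSC. AhR-KO LT-HSC 2 reached the MPP range, and the log2 fold change was 0.46 ± 0.26 (adjusted p = 0.229). In WT libraries Plk1 had 184, 139, 117, 108 and 105 CPM in MPP, against 147 CPM in WT LT-HSC 1 and 55.8, 57.7, 48.0 and 49.4 CPM in the other LT-HSC libraries. The log2 fold change was 0.87 ± 0.26 with WT LT-HSC 1 and 1.31 ± 0.17 without it (adjusted p = 0.0207 and 1.12e-05). For Ccnb1 it was 0.67 ± 0.27 in AhR-KO (adjusted p = 0.0821), and 0.95 ± 0.27 in WT with WT LT-HSC 1 and 1.44 ± 0.16 without it (adjusted p = 0.0157 and 2.31e-06). With WT LT-HSC 1 kept, the WT call of Plk1 was lost without WT LT-HSC 4, 5, 6 or 8 or without WT MPP 1, and that of Ccnb1 without WT LT-HSC 4, 6 or 8 or without WT MPP 1. A call in WT and none in AhR-KO does not show that the genotypes differed, and the test of that difference is given with the AhR-KO effects.

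Of the genes that act directly on the Cdk1 phosphates, Pkmyt1 and Cdc25c rose in MPP of both genotypes, Cdc25b rose in WT MPP, and Wee1 did not pass the test. Pkmyt1 had 85.7, 65.0, 61.7, 81.6 and 69.6 CPM in AhR-KO MPP, against 17.6, 20.5, 20.8, 25.8 and 20 CPM in AhR-KO LT-HSC. In WT it had 81.5, 57.6, 55.2, 63.5 and 66.6 CPM in MPP, against 26.3, 26.8, 26.8, 32.5 and 27.9 CPM in LT-HSC. The groups were far apart, and WT LT-HSC 1 (26.3 CPM) did not stand out. The log2 fold change was 1.80 ± 0.13 in AhR-KO and 1.21 ± 0.13 in WT (adjusted p = 1.76e-08 and 1.44e-06), and 1.19 ± 0.13 in WT without that library. For Wee1, the other inhibitory kinase, it was -0.04 ± 0.10 in AhR-KO (95% confidence interval -0.24 to 0.17) and 0.04 ± 0.10 in WT (-0.17 to 0.24), or 0.008 ± 0.10 without WT LT-HSC 1. The phosphatase gene Cdc25c (chromosome 18, 34732993 to 34751533) had 24.45 to 32.2 CPM in AhR-KO MPP, against 7.06 to 17.7 in AhR-KO LT-HSC, and 24.1 to 45.2 CPM in WT MPP, against 29.9 in WT LT-HSC 1 and 12.3 to 15.7 in the other 4. It rose by log2 1.32 ± 0.26 in AhR-KO and 0.94 ± 0.25 in WT (adjusted p = 0.000866 and 0.0109). Its WT value was 1.23 ± 0.22 without WT LT-HSC 1, close to that of Pkmyt1. Cdc25b, which had 41.5 to 105 CPM in WT MPP against 33.7 to 52.9 in WT LT-HSC, rose by 0.64 ± 0.21 in WT with WT LT-HSC 1 and 0.75 ± 0.21 without it (adjusted p = 0.0345 and 0.0118). With that library kept, the call was lost without WT LT-HSC 4, 5, 6 or 8 or without WT MPP 1 or 2, and its value in AhR-KO was 0.25 ± 0.21 (adjusted p = 0.444).

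Without WT LT-HSC 1, the same 9 genes were called in WT, against 29.9% of genes, with a median log2 fold change of 1.04, against 0.03 over all genes. The CPM of MPP and LT-HSC then did not overlap for 9 of the 10 genes, against 28.3% of genes, while with the library they did not overlap for 3, Bora, Ajuba and Pkmyt1, against 16.4%. In AhR-KO they did not overlap for 6, Aurka, Bora, Ajuba, Cdc25c, Pkmyt1 and Ccnb1, against 21.6%. Markers of myeloid progenitors also moved with the population. The 5 granulocyte-monocyte progenitor markers summed to 3145 to 11376 CPM in AhR-KO MPP and 5554 to 8768 in WT MPP, against 127 to 2352 in AhR-KO LT-HSC and 88.7 to 1340 in WT LT-HSC. All 9 neutrophil markers were detected in every MPP library, and their part in the results was not tested.

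**Figure D3:**
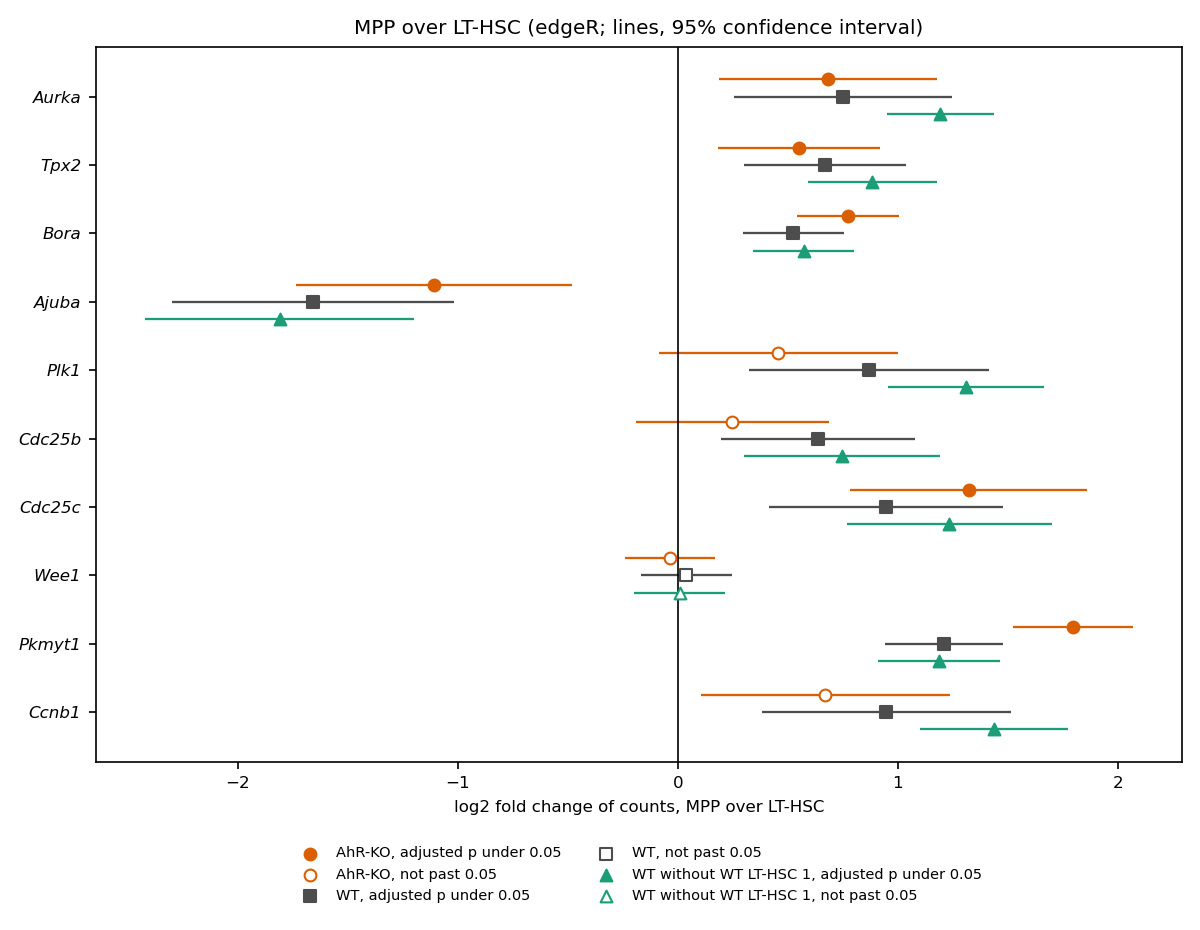
Log2 fold change of MPP over LT-HSC for each gene, in AhR-KO, in WT and in WT without WT LT-HSC 1. Lines are 95% confidence intervals of edgeR's quasi-likelihood fit, filled points have an adjusted p under 0.05 and open points do not. Pkmyt1 lies highest at 1.80 in AhR-KO and 1.21 in WT, but in WT without WT LT-HSC 1 Ccnb1 (1.44), Plk1 (1.31) and Cdc25c (1.23) lie above it (1.19). Ajuba lies at -1.11 and -1.66, and the intervals of Wee1 include 0.

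The genes around the switch were counted by list, where 23.2% of all genes were called in AhR-KO and 22.3% in WT. Of 9 tested genes of the Cdk1 module, 4 were called higher in MPP and none lower, in AhR-KO and in WT. Cdk1 itself had 164.5 ± 9.64 CPM in AhR-KO MPP against 93.5 ± 10.9 in AhR-KO LT-HSC, and 182 ± 11.6 CPM in WT MPP against 97.7 ± 22.8 in WT LT-HSC (SD, n = 5 each). Its log2 fold change was 0.81 ± 0.12 in AhR-KO and 0.90 ± 0.12 in WT (adjusted p = 5.87e-05 and 2.22e-05). Cks2, a small Cdk1-binding subunit, rose by log2 0.81 ± 0.15 in AhR-KO and 1.02 ± 0.15 in WT. Of 13 tested partners and relatives of Aurora A, 6 were called higher and 1 lower in AhR-KO MPP, and 7 higher and none lower in WT MPP. They included Aurkb, the sister kinase (0.89 ± 0.17 in AhR-KO and 1.05 ± 0.17 in WT), and Incenp, its scaffold (0.72 ± 0.10 and 0.89 ± 0.10).

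Relatives of Plk1 did not move as one: of 3 tested, 1 was called higher and 2 lower in AhR-KO MPP, and 1 higher and 1 lower in WT MPP. Plk2, which is known for roles outside mitotic entry, averaged 0.659 ± 0.599 CPM in AhR-KO MPP against 12.6 ± 7.10 in AhR-KO LT-HSC, and 0.930 ± 0.546 CPM in WT MPP against 15.8 ± 0.744 in WT LT-HSC. Its log2 fold change was -4.25 ± 0.62 in AhR-KO and -4.09 ± 0.61 in WT (adjusted p = 5.47e-05 and 6.71e-05). Plk4, the kinase of centriole duplication, rose by 0.60 ± 0.15 in both. In the Greatwall and PP2A-B55 pathway, only the Greatwall arm protects Cdk1 substrates. Of its 10 tested genes, 1 was called higher and 2 lower in AhR-KO MPP, and 1 higher and 1 lower in WT MPP. These shares lay near those of all genes. The kinase gene Mastl rose by 0.75 ± 0.23 in AhR-KO and 0.90 ± 0.23 in WT, and Ppp2r2a, a B55 subunit of the opposing phosphatase, fell by 0.38 ± 0.09 and 0.28 ± 0.09. Of 12 tested G2/M transcription factors, 5 were called higher in AhR-KO MPP and 4 in WT MPP. Mybl2, which encodes B-Myb, rose by 0.74 ± 0.17 in AhR-KO and 0.93 ± 0.17 in WT, and Foxm1 rose by 1.14 ± 0.20 in WT.

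Of 10 G2 checkpoint genes, 4 were called higher in AhR-KO MPP and 3 in WT MPP. Cdkn1a, which encodes the CDK inhibitor p21, averaged 20.5 ± 3.55 CPM in AhR-KO MPP against 4.55 ± 0.915 in AhR-KO LT-HSC, and 10.7 ± 2.83 CPM in WT MPP against 2.85 ± 0.605 in WT LT-HSC. Its log2 fold change was 2.17 ± 0.21 in AhR-KO and 1.90 ± 0.21 in WT (adjusted p = 4.86e-07 and 2.66e-06). Of 15 turnover genes, 3 were called higher and 1 lower in AhR-KO MPP, and 2 higher in WT MPP, shares near or below those of all genes. Ube2c, the ubiquitin-conjugating enzyme of the anaphase-promoting complex, rose by 0.85 ± 0.21 in AhR-KO and 1.31 ± 0.21 in WT. Of the 18 S phase genes, 7 were called higher in AhR-KO MPP and 8 in WT MPP, with median log2 fold changes of 0.32 and 0.37.

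Without WT LT-HSC 1, where 29.9% of all genes were called, the WT counts of the lists were as follows. Called higher and lower were 5 and 0 of 9 genes of the Cdk1 module, 8 and 1 of 13 partners and relatives of Aurora A, 1 and 1 of 3 relatives of Plk1, and 1 and 1 of 10 genes of the Greatwall and PP2A-B55 pathway. They were 6 and 0 of 12 G2/M transcription factors, 3 and 0 of 10 checkpoint genes, 5 and 0 of 15 turnover genes, and 12 and 0 of 18 S phase genes. Each gene of these lists named above that was called in WT with the library was also called without it. Ube2c was then at 1.63 ± 0.14, Aurkb at 1.27 ± 0.12 and Cdk1 at 1.05 ± 0.08.

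The AhR-KO effect on the switch was examined within each population. In MPP, none of the 10 genes passed the test, where 0.0311% of 16077 genes (5 genes) did. At an unadjusted p under 0.05 there were 4 of the 10 genes and 1065 of all genes, and DESeq2 and limma voom called none of the 10. The lowest p-values were those of Ccnb1 and Plk1. Ccnb1 had 171, 217, 238, 190.5 and 234 CPM in AhR-KO MPP, against 438, 315, 251, 259 and 249.3 CPM in WT MPP. Every AhR-KO library lay below every WT library, as did those of 0.560% of genes. The log2 fold change was -0.53 ± 0.15 (adjusted p = 0.560), and between -0.58 and -0.37 with each library left out in turn, with the smallest size without WT MPP 1, the library with the highest Ccnb1.

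Plk1 had 80.4, 89.6, 112, 84.5 and 95.4 CPM in AhR-KO MPP, against 184, 139, 117, 108 and 105 CPM in WT MPP. AhR-KO MPP 3, the highest of its group, overlapped the lower WT libraries, and the log2 fold change was -0.50 ± 0.15 (adjusted p = 0.568). Tpx2 differed by -0.37 ± 0.14 and Aurka by -0.27 ± 0.11 (adjusted p = 0.663 and 0.675). Aurka had 87.2 to 128 CPM in AhR-KO MPP, against 113 to 145 in WT MPP, so the groups overlapped. Cdc25b differed by -0.45 ± 0.21, Cdc25c by -0.18 ± 0.16 and Bora by -0.10 ± 0.09 (adjusted p = 0.758, 0.865 and 0.865). Of the Cdk1 inhibitors, Wee1 was at 0.02 ± 0.10 (95% confidence interval -0.20 to 0.25) and Pkmyt1 at 0.16 ± 0.13, and Ajuba, at 0.62 ± 0.35, had the largest value above 0 (adjusted p = 0.978, 0.852 and 0.789). Of the 10 genes, 7 had a negative value and the median was -0.22, against 0.00 over all genes, of which 50.9% were positive.

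The Ccnb1 row does not hold all reads of that sequence. Its transcript matched the processed pseudogenes Gm12856 at 98.1% identity over 1294 bases and Gm4870 at 94.4% over 1272 bases, and these 2 rows held 12.4 to 14.5% of the summed counts in each library of the 4 groups. With all 3 rows added, AhR-KO MPP had 198 to 275 CPM, against 288 to 501 in WT MPP, so that the groups still did not overlap. The Ccnb1 transcript also matched Ccnb1-ps (99.2% over 1287 bases), Gm8416 (97.3% over 1290) and Gm7483 (96.6% over 383). No rows were found under these symbols, so the sum and the percentages leave them out. Plk1 matched the pseudogene Plk-ps1 at 93.5% over 1813 bases, whose row held 1.95% as many counts as Plk1.

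None of the pathway genes was called in AhR-KO MPP either. The genes with the smallest p of their lists included Ccna2, the cyclin A2 gene, at -0.39 ± 0.12, Kif11, the Eg5 motor gene, at -0.44 ± 0.15, Plk4 at -0.28 ± 0.09 and Ube2c at -0.28 ± 0.10, with adjusted p between 0.581 and 0.633. Ppp2r1b, a scaffold subunit of PP2A, was at -0.25 ± 0.10, the MuvB gene Lin54 at -0.29 ± 0.14 and the ribonucleotide reductase gene Rrm1 at -0.35 ± 0.15 (adjusted p = 0.675, 0.769 and 0.686). All 9 tested genes of the Cdk1 module and 12 of 13 partners of Aurora A had a negative value, with medians of -0.07 and -0.22. Cdk1 was at -0.15 ± 0.08 (adjusted p = 0.770). Cdkn1a had a positive value, with 20.5 ± 3.55 CPM in AhR-KO MPP and 10.7 ± 2.83 in WT MPP (SD, n = 5 each), and a log2 fold change of 0.94 ± 0.20 (adjusted p = 0.342). DESeq2, run as an alternative, called it at an adjusted p of 0.00348, the lowest of 17 alternatives, in which it reached up to 0.964. Of the 18 S phase genes, 6 had a positive value and the median was -0.04.

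In LT-HSC, none of the 10 genes passed the test, where 0.00622% of 16065 genes (1 gene) did. At an unadjusted p under 0.05 there were 2 of the 10 genes, Pkmyt1 and Bora, and 1422 of all genes, and DESeq2 and limma voom called none of the 10. Pkmyt1 had 17.6, 20.5, 20.8, 25.8 and 20 CPM in AhR-KO LT-HSC, against 26.3, 26.8, 26.8, 32.5 and 27.9 CPM in WT LT-HSC. It was lower in every AhR-KO library than in any WT library, as were 1.41% of genes (4.20% without WT LT-HSC 1). The log2 fold change was -0.41 ± 0.12 (adjusted p = 0.460), and -0.43 ± 0.12 without WT LT-HSC 1 (adjusted p = 0.0869). Over all alternatives tried its adjusted p lay between 0.0531 and 0.9997. Bora had 37.4, 36.1, 36.6, 36.9 and 29.4 CPM in AhR-KO LT-HSC, against 50.8, 54.0, 46.6, 35.3 and 38.3 CPM in WT LT-HSC. WT LT-HSC 6 lay within the AhR-KO range, and the log2 fold change was -0.34 ± 0.14 with WT LT-HSC 1 and -0.29 ± 0.13 without it (adjusted p = 0.540 and 0.243).

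For Aurka, Plk1 and Ccnb1, which stood out in WT LT-HSC 1, the sign of the AhR-KO effect in LT-HSC depended on that library, while the values of Tpx2 and Cdc25c stayed negative. Aurka had 54.9, 68.2, 74.1, 72.1 and 57.2 CPM in AhR-KO LT-HSC, against 156 CPM in WT LT-HSC 1 and 50.5 to 58.3 CPM in the other 4 WT libraries. Its log2 fold change was -0.19 ± 0.30 with WT LT-HSC 1 and 0.25 ± 0.10 without it (adjusted p = 0.907 and 0.208). Plk1 had 51.9 to 84.9 CPM in AhR-KO LT-HSC, against 147 CPM in WT LT-HSC 1 and 48.0 to 57.7 CPM in the other 4, and was at -0.07 ± 0.31 with the library and 0.37 ± 0.15 without it (adjusted p = 0.973 and 0.205). Ccnb1 had 107 to 158 CPM in AhR-KO LT-HSC, against 337.5 CPM in WT LT-HSC 1 and 103 to 123 CPM in the other 4, and was at -0.23 ± 0.32 and 0.26 ± 0.12 (adjusted p = 0.890 and 0.257). None of these values passed the test, and the groups overlapped in both settings.

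Without WT LT-HSC 1, 203 genes or 1.24% of 16338 were called in LT-HSC, and none of the 10 was among them, with 5 of the 10 and 3088 of all genes at an unadjusted p under 0.05. The values of the 10 genes were then 5 positive and 5 negative with a median of 0.02, as over all genes, while with the library 8 were negative with a median of -0.21, against 0.00 over all genes. Without AhR-KO LT-HSC 2 and 3 as well, Aurka, Plk1 and Ccnb1 were at 0.15, 0.19 and 0.09. Wee1 was at 0.11 ± 0.09 with WT LT-HSC 1 and 0.08 ± 0.07 without it, Tpx2 at -0.23 ± 0.19 and -0.02 ± 0.09, Cdc25c at -0.54 ± 0.30 and -0.25 ± 0.23, Cdc25b at -0.04 ± 0.17 and 0.07 ± 0.14, and Ajuba at 0.08 ± 0.21 and -0.07 ± 0.13. Of the pathway genes, none was called with WT LT-HSC 1. Without it 1 was, Topbp1, an activator of the checkpoint kinase ATR, with 167.5 ± 13.95 CPM in AhR-KO LT-HSC (n = 5) and 221 ± 23.5 in WT LT-HSC (SD, n = 4). Its log2 fold change was -0.39 ± 0.08 (adjusted p = 0.0434). The medians of the 8 lists lay between -0.26 and 0.06 with WT LT-HSC 1 and between -0.06 and 0.10 without it, and of the 18 S phase genes 10 had a positive value with the library and 17 without it.

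**Figure D4:**
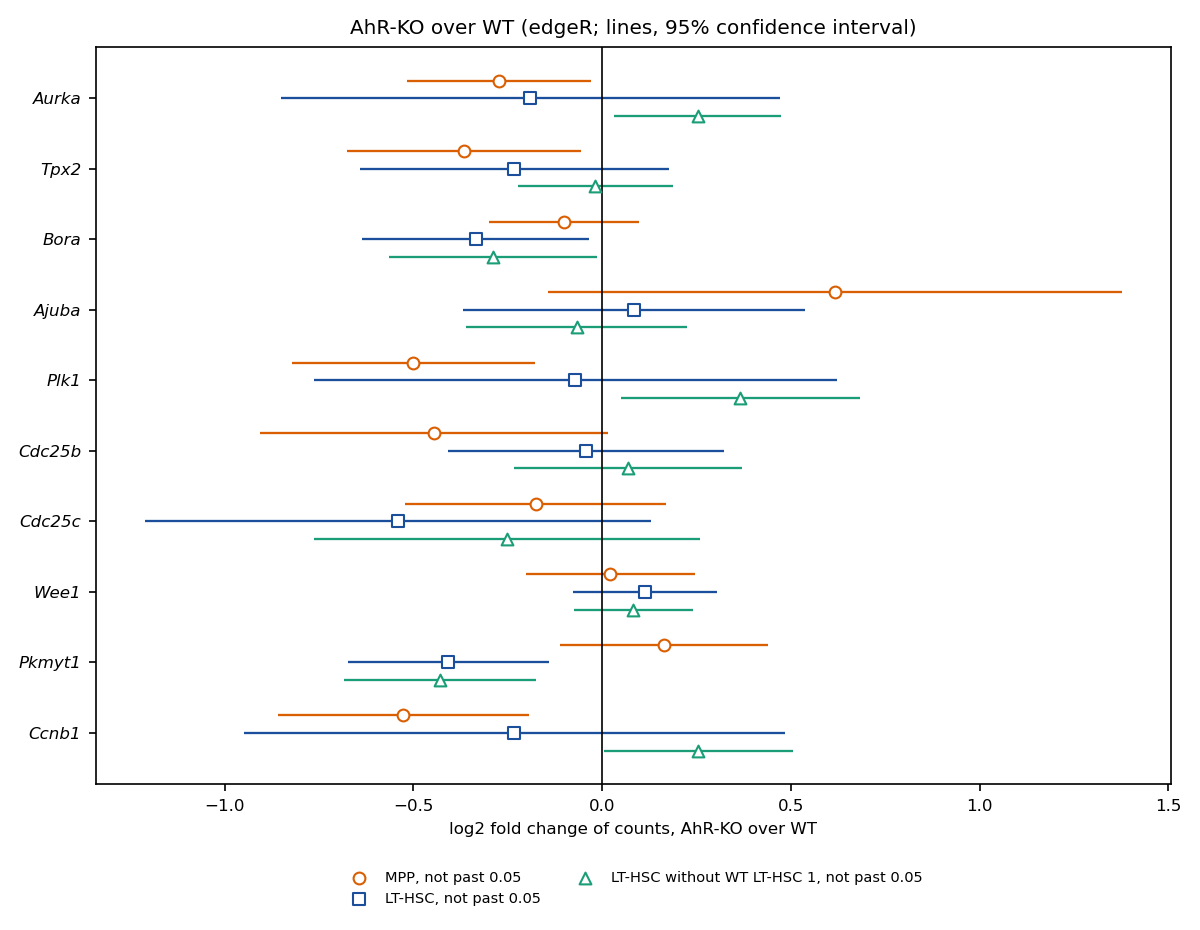
Log2 fold change of AhR-KO over WT for each gene, in MPP, in LT-HSC and in LT-HSC without WT LT-HSC 1. Lines are 95% confidence intervals of edgeR's quasi-likelihood fit, and all points are open because none had an adjusted p under 0.05. In LT-HSC, Aurka, Plk1 and Ccnb1 lie left of 0 with WT LT-HSC 1 (-0.19, -0.07 and -0.23) and right of it without the library (0.25, 0.37 and 0.26), while Pkmyt1 stays at -0.41 and -0.43.

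Whether the AhR-KO effect differed between MPP and LT-HSC was tested as an interaction over all 20 libraries. None of the 10 genes passed, and none of 17416 genes did (0%), with 1125 genes and 1 of the 10 at an unadjusted p under 0.05. Again none of the 10 passed without WT LT-HSC 1, with 1488 of 17788 genes and 4 of the 10, Pkmyt1, Plk1, Ccnb1 and Aurka, at an unadjusted p under 0.05. With the library, the 1 was Pkmyt1, at 0.59 ± 0.18 in MPP minus LT-HSC (adjusted p = 0.553), since its value was 0.16 in MPP and -0.41 in LT-HSC. Without WT LT-HSC 1 it was at 0.61 ± 0.18 (adjusted p = 0.277). DESeq2 called 51 genes and limma voom 18, with none of the 10 among them. Without that library, Plk1 was at -0.85 ± 0.23, Ccnb1 at -0.77 ± 0.21 and Aurka at -0.51 ± 0.16 (adjusted p = 0.222, 0.245 and 0.310), and with it they were at -0.41 ± 0.37, -0.28 ± 0.38 and -0.07 ± 0.33. These differences equal the genotype differences of the MPP over LT-HSC values, so the AhR-KO and WT values of Plk1 and Ccnb1 given above were not shown to differ.

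The balance of activators and inhibitors was described by ratios of counts within a library, which do not depend on library size. These pairs were chosen after the values were seen and carry no test. The ratio of Ccnb1 to Wee1 was 0.911 to 1.42 in AhR-KO MPP, 1.27 to 2.10 in WT MPP, 0.512 to 0.901 in AhR-KO LT-HSC and 0.550 to 0.628 in WT LT-HSC other than library 1, which had 2.03. That library thus lay within the range of WT MPP. The ratio of Pkmyt1 to Wee1, the 2 kinases that inhibit Cdk1, was 0.295 to 0.493 in AhR-KO MPP and 0.279 to 0.402 in WT MPP. In LT-HSC it was 0.0844 to 0.130 in AhR-KO and 0.133 to 0.174 in WT, without overlap and with library 1 inside the WT range.

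The ratio of Cdc25b to Cdc25c was lower in MPP than in LT-HSC without overlap in AhR-KO. In WT the overlap came from WT LT-HSC 1 alone, at 1.77, while the rest of its group had 2.45 to 3.30. With that library set aside, the ratio was lower in every WT MPP library than in any WT LT-HSC library. It was 1.19 to 1.92 in AhR-KO MPP, 1.58 to 2.32 in WT MPP, 2.78 to 4.96 in AhR-KO LT-HSC and 1.77 to 3.30 in WT LT-HSC. The summed CPM of the 10 genes was 0.183 to 0.228 of that of the 18 S phase genes in AhR-KO MPP, 0.204 to 0.249 in WT MPP, 0.146 to 0.178 in AhR-KO LT-HSC and 0.144 to 0.185 in WT LT-HSC other than library 1, which had 0.219. Of the LT-HSC libraries, WT LT-HSC 4 and the library labelled 1 reached the range of MPP.

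**Figure D5:**
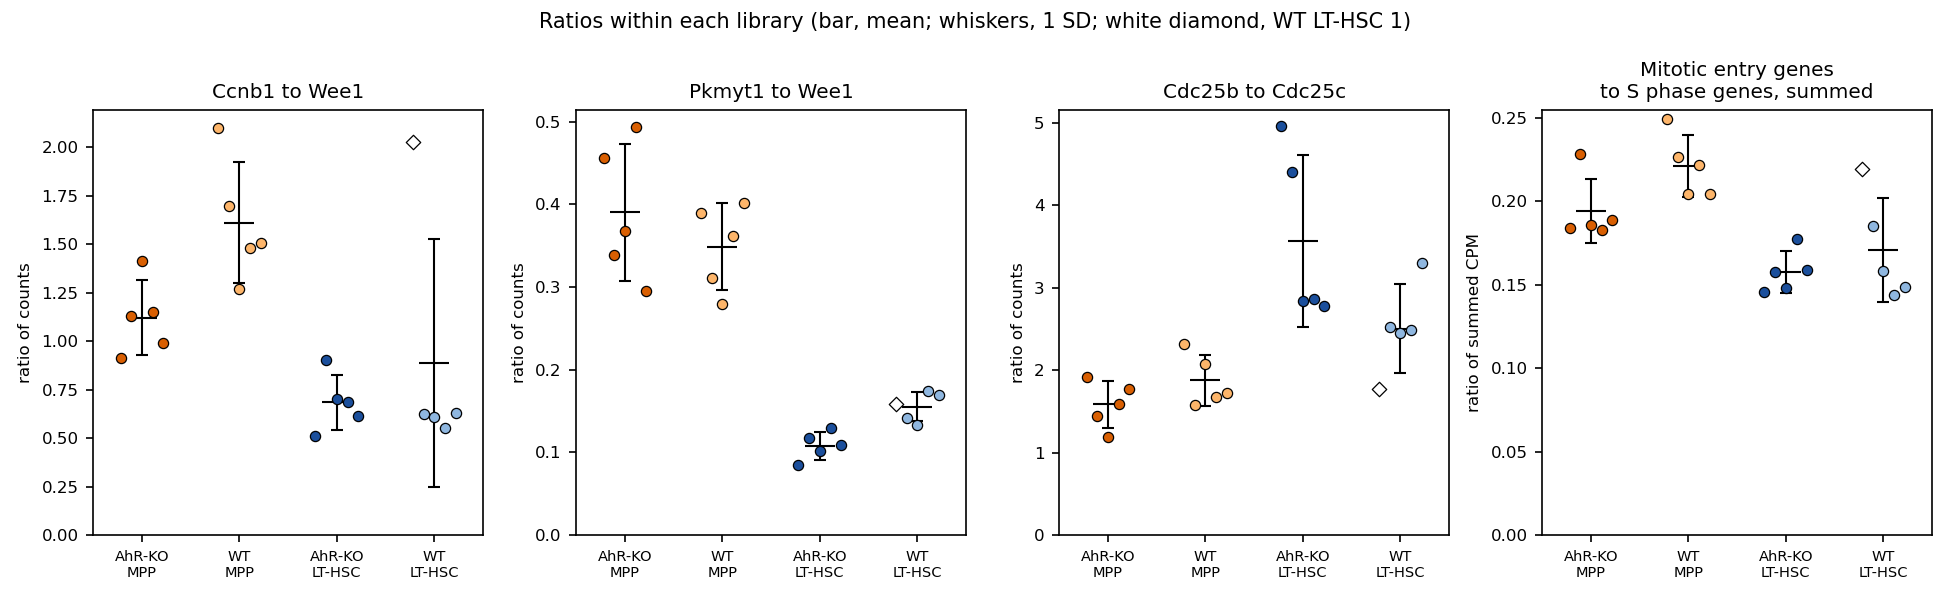
Ratios within each library, from 0, for AhR-KO MPP, WT MPP, AhR-KO LT-HSC and WT LT-HSC: counts of Ccnb1 to Wee1, Pkmyt1 to Wee1 and Cdc25b to Cdc25c, and the summed CPM of the 10 mitotic entry genes over that of 18 S phase genes. Points are libraries, bars are means of 5, whiskers are 1 SD and the white diamond is WT LT-HSC 1. Its Ccnb1 to Wee1 ratio of 2.03 lies in the WT MPP range of 1.27 to 2.10, while its Pkmyt1 to Wee1 ratio lies with the other WT LT-HSC libraries.

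Across the 20 libraries, which share populations and depth, the members fell into those that went with Aurka and those that did not. Pearson's r of log2(CPM + 1) was 0.986 between Plk1 and Ccnb1, 0.970 between Aurka and Ccnb1 and 0.955 between Aurka and Plk1, and 0.984, 0.966 and 0.949 over the 19 libraries without WT LT-HSC 1. Ajuba and Aurka had an r of -0.781, and Wee1 and Aurka of -0.138. Among the same 11880 genes, those most like Aurka were Gm12856 (0.975), Ccnb1, the kinesin gene Kif22 (0.968), Cdca8 (0.968), a partner of Aurora B, and Kpna2 (0.966), an importin gene. Gm12856 is the Ccnb1 pseudogene described above. Those most like Plk1 were Ccnb1, Gm5593 (0.981), Gm12856 (0.978), Kif22 (0.963) and Kif20a (0.958). Over the 19 libraries, those most like Aurka were Gm12856 (0.972), Kpna2 (0.971), Gm10259 (0.968), Aurkb (0.968) and Gm10184 (0.967). For Plk1, Ccnb2 (0.956) then took the place of Kif20a. Gm5593 was also the gene most like Ccnb1 (0.997). Its similarity in sequence to Ccnb1 was not computed, so it may not be a separate signal.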

How the data were processed

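Per the labels' protocols, poly(A) RNA libraries were made with a kit that does not mark strand, and the tools listed in the submitters' processing notes are Subread 1.5.0p3, featureCounts, STAR 2.5.2b, DESeq2 1.12.4 and Trimmomatic 0.36, with the build GRCm38.p5. The authors deposited raw gene counts in 2 tables, 1 for LT-HSC and 1 for MPP, with 49568 rows and 10 libraries each. Of these rows, 26 carried a symbol turned into a date, with at most 0.156% of a library's counts, and they were kept. The protocol text attached to the samples speaks of dendritic cell libraries, so its details may not all apply.

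Counts were filtered with filterByExpr, scaled by TMM and tested with edgeR 4.0.16 (robust quasi-likelihood F test, R 4.3.3) and Benjamini-Hochberg adjustment over all genes tested. AhR-KO was set against WT within each table, from that population's 10 libraries. MPP was set against LT-HSC, and the AhR-KO effects against each other, in a fit over all 20 libraries, since the tables hold the same rows in counts. SE is the log2 fold change over the square root of F. The procedure was also run on simulated counts with known changes. Their spread was the same in all libraries and smaller than in the data. No library was made to stand apart, so they do not check values that rest on WT LT-HSC 1. Alternatives were DESeq2 1.42.0, limma 3.58.1 voom with sample weights, other filters, other sets of libraries, each library left out and the replicate number as a block. The block fits kept only libraries whose number occurs in both groups compared. Same-numbered libraries deviated together at r of -0.155 to 0.16, and the numbers were not taken to pair them. In AhR-KO, however, MPP 2, 3 and 4 went most with the LT-HSC library of their number (r = 0.0526, 0.0851 and 0.16). AhR-KO MPP 1 did not, and neither did any same-numbered pair of the other comparisons. Whether same-numbered libraries share an animal was not settled, and the main tests treated all libraries as separate samples.

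The members and lists were chosen with earlier results of these data known. All 10 members, Cdk1 and Ahr are named whatever their result. Of each list, up to 3 called genes with the smallest p are named, or else the single smallest p. The genes most like Wee1 are not reported here. Symbols were matched to GENCODE M21, and similar transcripts were those with at least 90% identity over at least 300 bases. No source gives the sort strategy, a batch or a sequencing date. Counting error and depth limit Ajuba most, and common biological variation was 32.5% in LT-HSC, 29.2% in MPP and 33.8% over both.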

Additional observations from a re-analysis of the deposited data

Results flagged for a closer look

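In each group of 5 libraries, the highest and lowest library of each of the 10 genes was set against the others by Dixon's criterion, which chance alone passes in about 1 in 20 groups. Of 40 groups, 8 passed. WT LT-HSC 1 accounted for 5 of them, with Aurka at 155.5 CPM (others 50.5 to 58.3), Tpx2 at 209 CPM (104 to 134), Plk1 at 146.5 CPM (48.0 to 57.7), Cdc25c at 29.9 CPM (12.3 to 15.7) and Ccnb1 at 337.5 CPM (103 to 123). Its Wee1, Bora, Pkmyt1, Ajuba and Cdc25b did not pass. The S phase genes summed to 5392 CPM in that library, against 3810 to 4326 in the rest of its group, and its limma voom weight in the fit of LT-HSC was 0.0535. The part of these differences in its high Aurka, Plk1 and Ccnb1 was not tested.

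The remaining 3 lay in other libraries or other genes. Cdc25b reached 104.7 CPM in WT MPP 1, against 41.5 to 59.8 in the other WT MPP libraries. Bora was 29.4 CPM in AhR-KO LT-HSC 7, below the 36.1 to 37.4 CPM of the others of its group. Pkmyt1 was 32.5 CPM in WT LT-HSC 6, above the 26.3 to 27.9 CPM of the others.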

How the results depend on the processing

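The calls of Bora, Ajuba, Cdc25c and Pkmyt1 between MPP and LT-HSC were the firmest in AhR-KO, while those of Aurka and Tpx2 there, and of Aurka, Plk1, Cdc25b and Ccnb1 in WT, depended on the setting. In WT, 9 members were called, against 5 without a filter, 4 with only the WT libraries, 2 with the replicate block and 5 to 9 with each library left out. The block also left out libraries whose number the other group lacks, so its counts rest on fewer libraries except in AhR-KO against WT in MPP. In AhR-KO it was 6, and 4 to 8 over the alternatives. No member was called in any alternative of the AhR-KO comparisons or of their difference. Over all genes, 3876 were called in WT (6493 with limma voom, 1483 with the replicate block) and 4041 in AhR-KO (2041 with the block). In MPP, AhR-KO against WT gave 5 genes, and 3 with DESeq2 size factors, 50 with DESeq2, 8 with voom, 0 with the block and 0 to 4 with each library left out. In LT-HSC it gave 1, and 3 with DESeq2 size factors, 4 without a filter, 3 with a filter of 5 CPM, 147 with DESeq2, 305 with voom, 14 in the fit over 20 libraries, 32 without AhR-KO LT-HSC 2 and 3 and WT LT-HSC 1, 0 with the block and 0 to 203 with each library left out, the highest without WT LT-HSC 1. The difference of effects gave 0, and 51 with DESeq2 and 18 with voom. The filter of 5 CPM left Ajuba out of the test in MPP.

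Signs turned for AhR-KO over WT in LT-HSC. With voom, without AhR-KO LT-HSC 2 and 3 and WT LT-HSC 1, and as the range with each library left out, the log2 fold change was 0.23, 0.15 and -0.32 to 0.25 for Aurka, -0.0582, -0.0162 and -0.0678 to 0.18 for Ajuba, 0.35, 0.19 and -0.20 to 0.37 for Plk1, 0.0586, 0.0172 and -0.16 to 0.0680 for Cdc25b, 0.24, 0.0903 and -0.36 to 0.26 for Ccnb1, and 0.10, 0.0325 and -0.12 to 0.11 for Cdk1. Without WT LT-HSC 1 all 6 turned, and without AhR-KO LT-HSC 7 Plk1 and Cdc25b did. Values near 0 also changed sign: Wee1 between MPP and LT-HSC in WT with the block (-0.0504) and with each library left out (-0.0250 to 0.0632), Wee1 in AhR-KO over WT in MPP with voom (-0.0101) and with each library left out (-0.0620 to 0.0686), and Cks2 in AhR-KO over WT in LT-HSC with the block (-0.00596). In the difference of effects they were Aurka without AhR-KO LT-HSC 2 and 3 (0.0117) and with each library left out (-0.51 to 0.0300), and Tpx2 with the block (0.0222). The cause was not tested. The replicate block was run although the numbers were not taken to pair the libraries. It kept only libraries whose number occurs in both groups. In WT these were MPP and LT-HSC 1, 4 and 5, so WT LT-HSC 1 weighed more. For AhR-KO over WT in LT-HSC they were 1 and 4 of each genotype. The WT value of MPP over LT-HSC was then 0.40 for Tpx2, 0.34 for Bora and 0.61 for Aurka, against 0.67, 0.53 and 0.75 in the main fit. The parts of the block and of the smaller set of libraries in this were not tested. Depth limits Ajuba in MPP, which rests on 26 to 156 counts a library.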

Other observations

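Outside the genes named above, the closest correlates of the other members were as follows over the 20 libraries, as Pearson's r of log2(CPM + 1). Bora was most like Kif20b (0.953), a kinesin gene of cytokinesis, and Tpx2 most like Nusap1 (0.952) and Hmmr (0.951), both of spindle microtubules. Cdc25c was most like Sapcd2 (0.960), and Ajuba most like C1ra (0.940), Tmem201 (0.939) and Vdr (0.932), the vitamin D receptor gene. Cdc25b was most like Rnf26 (0.915), and its second closest gene was the immunoglobulin segment Igkv4-59 (0.856). B and plasma cell markers summed to 4194 CPM in WT MPP 3, the library with the most, where Cdc25b had 59.6 CPM. In WT MPP 1, where Cdc25b was highest at 104.7 CPM, they summed to 782 CPM. Over the 19 libraries without WT LT-HSC 1, Tpx2 was most like Kif2c (0.970) and Top2a (0.959), and Ajuba most like Cyp2j6 and Fstl1 (both 0.956). Kif20b (0.954), Sapcd2 (0.962) and Rnf26 (0.914) stayed closest to Bora, Cdc25c and Cdc25b. The points share population, depth and, in part, the library WT LT-HSC 1.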
